A study of Mus musculus with 21 samples.

Results

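Flavin-containing monooxygenases (FMOs) and organic cation transporters were described in kidney RNA-seq data as a set of 6 genes, Fmo1, Fmo2, Fmo4, Fmo5, Slc22a2 and Slc47a1. They were chosen by symbol in the deposited gene-name column and linked by Ensembl identifier to the count tables, and all 6 were found among the 21657 gene identifiers of the tables. The kidneys came from 17 female apoE knockout mice on a C57BL/6J background, which were 4 weeks old when the diets began, were fed for 14 weeks and were 18 weeks old at collection. The knockout was shared by all groups, the controls included. The Con group (5 mice) received the control diet, the Ade group (6 mice) a diet with adenine, which injures the kidney tubules, and the Ade + IMC group (6 mice) a diet with adenine and iodomethylcholine (IMC), an inhibitor of the bacterial enzyme that makes trimethylamine (TMA) from choline. A further group of 4 mice in the labels, Con + IMC, was not analysed here, so an effect of IMC without adenine could not be read. Each library is a whole kidney RNA sample of 1 mouse, and litters or cages are not given.

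FMOs are enzymes of the endoplasmic reticulum that use NADPH and oxygen to oxidise soft nucleophiles such as tertiary amines. One such amine is TMA, and its product, trimethylamine N-oxide (TMAO), is made mainly in the liver. FMO1 is the FMO for which mouse kidney is best known. TMAO leaves the body mainly in urine. In the proximal tubule, OCT2 (encoded by Slc22a2) takes organic cations from blood into the cell across the basolateral membrane, and MATE1 (encoded by Slc47a1) exports them across the apical membrane into the tubular fluid in exchange for protons.

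The FMO genes other than Fmo5 sit next to each other. On GRCm38 (mm10), Fmo1 (ENSMUSG00000040181) spans chr1:162829561-162866610, Fmo2 (ENSMUSG00000040170) chr1:162874317-162898726 and Fmo4 (ENSMUSG00000026692) chr1:162793188-162813972, all on the minus strand. Fmo5 (ENSMUSG00000028088) lies on the plus strand at chr3:97628804-97655282. Slc22a2 (ENSMUSG00000040966) lies on the plus strand at chr17:12584132-12628488 and Slc47a1 (ENSMUSG00000010122) on the minus strand at chr11:61343401-61378345. All are protein-coding, and 0 exonic bases of the 6 genes are shared with another annotated gene, so the unstated use of strand does not mix their reads with those of an overlapping gene. Of the 50-base windows of their transcripts, as long as a read, 7.02% for Fmo1, 4.44% for Slc22a2 and 0.434% for Fmo5 also occur in transcripts of other genes, and 0 for Fmo2, Fmo4 and Slc47a1.

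RefSeq promoter sequence (GRCm38.p6) was given for 4 of the 6 genes. The stretch before the RefSeq start is shown for Fmo2, Fmo4 and Slc22a2, which fell together in the adenine groups, and for Fmo5, which did not, and each stretch stops before the first exonic base. The stretches are therefore the far part of the 250 bases before the RefSeq start, and end 0 bases (Fmo2), 104 (Fmo4), 57 (Slc22a2) and 215 bases (Fmo5) short of it. Read 5′ to 3′, they lie at chr1:162898759-162899008 on the minus strand (Fmo2, 250 bases), chr1:162812654-162812799 on the minus strand (Fmo4, 146 bases), chr17:12583939-12584131 on the plus strand (Slc22a2, 193 bases) and chr3:97628769-97628803 on the plus strand (Fmo5, 35 bases). The Fmo4 stretch precedes a RefSeq start that lies inside the longer gene span given above, so it falls in an intron of that span and not before its outer end. Capitals mark a match to a searched motif.
Fmo2: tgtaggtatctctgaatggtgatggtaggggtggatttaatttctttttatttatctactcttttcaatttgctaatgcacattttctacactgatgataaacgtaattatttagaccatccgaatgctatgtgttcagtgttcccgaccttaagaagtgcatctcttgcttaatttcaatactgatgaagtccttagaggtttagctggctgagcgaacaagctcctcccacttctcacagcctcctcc
Fmo4: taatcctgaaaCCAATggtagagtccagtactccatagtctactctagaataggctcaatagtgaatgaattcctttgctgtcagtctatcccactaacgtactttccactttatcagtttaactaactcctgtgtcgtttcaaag
Slc22a2: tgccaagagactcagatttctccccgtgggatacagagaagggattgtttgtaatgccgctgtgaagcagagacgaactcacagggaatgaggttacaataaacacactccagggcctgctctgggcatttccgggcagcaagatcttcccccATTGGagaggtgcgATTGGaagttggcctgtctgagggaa
Fmo5: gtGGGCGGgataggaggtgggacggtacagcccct

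The 7 motifs were searched on both strands, and no match overlapped another. Of general promoter elements, the TATA box was spelled TATAAA, the CCAAT box by its name and the GC box GGGCGG. Of binding sites for factors of tubule cells, the core of the HNF1 site was spelled GTTAAT and the core of the HNF4 site CAAAGT. Of sites for widely present factors, the E-box was spelled CACGTG and the AP-1 site TGANTCA. Fmo4 held a CCAAT box, which 19.4% of 32851 mouse promoters hold in a stretch of the same length and place. Slc22a2 held 2 CCAAT boxes on the reverse strand (27.3% of promoters hold at least 1), and Fmo5 a GC box (3.39% of promoters). The Fmo2 stretch held none of the 7, which says only that these letters are not in this window. The share of G and C was 39.6% for Fmo2, 39% for Fmo4 and 52.3% for Slc22a2, against medians of 52.4%, 50.7% and 51.3% over all promoters at the same lengths, and 68.6% against 48.6% in the short Fmo5 stretch.

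The total count per library was 7716126 to 11680809 in the Con group, 5444833 to 7673215 in the Ade group and 5728589 to 8305968 in the Ade + IMC group. The 6 genes had 58 to 9338 counts in every mouse, well above the 3 counts used as a floor. Levels are given as CPM, the count per 1000000 reads of the library, scaled with the trimmed mean of M values (TMM) over the 17 mice, and genes are compared with each other only as CPM per kilobase of exon. In the Con kidney, Slc47a1 was the highest of the 6 genes per length at 199 ± 23.5 CPM per kb (SD, n = 5). It was followed by Fmo1 at 163 ± 19.8, Slc22a2 at 99.5 ± 15.1, Fmo2 at 80.4 ± 8.25, Fmo4 at 12.3 ± 1.24 and Fmo5 at 4.06 ± 0.52 CPM per kb. The ranges of Slc47a1 and Fmo1 over the Con mice overlapped, and so did those of Slc22a2 and Fmo2, whereas Fmo4 and Fmo5 stood apart from the rest and from each other. Within each of the 5 Con and 6 Ade mice, however, Slc47a1 lay above Fmo1 and Slc22a2 above Fmo2. In the Ade group the order of the first 4 was kept in the means, at 82.8 ± 20.8, 48.8 ± 15.6, 42.3 ± 16.4 and 19.4 ± 10.3 CPM per kb (SD, n = 6). The last 2 lay within each other's spread there, Fmo5 at 4.26 ± 1.71 and Fmo4 at 3.62 ± 1.14 CPM per kb.

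The adenine diet was compared with the control diet to ask how the kidney's own FMOs and cation carriers behave in adenine nephropathy. Fmo1, Fmo2 and Fmo4 fell 3.29-, 4.10- and 3.33-fold in the Ade group, and the transporters Slc22a2 and Slc47a1 fell 2.32- and 2.36-fold, while Fmo5 did not change by the test. Thus 5 of the 6 genes were lower and 0 higher at an adjusted p below 0.1 in edgeR's quasi-likelihood test. Adenine changed the kidney widely, and the count has to be read against that: 67.3% of the 14612 genes tested were called, and 32.2% were called lower. The same 5 genes did not overlap between the groups, every Ade mouse lying below every Con mouse, which held for 20.6% of all genes tested. The median log2 fold change of the 6 genes was -1.48, against 0.02 over all genes tested.

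**Figure D1:**
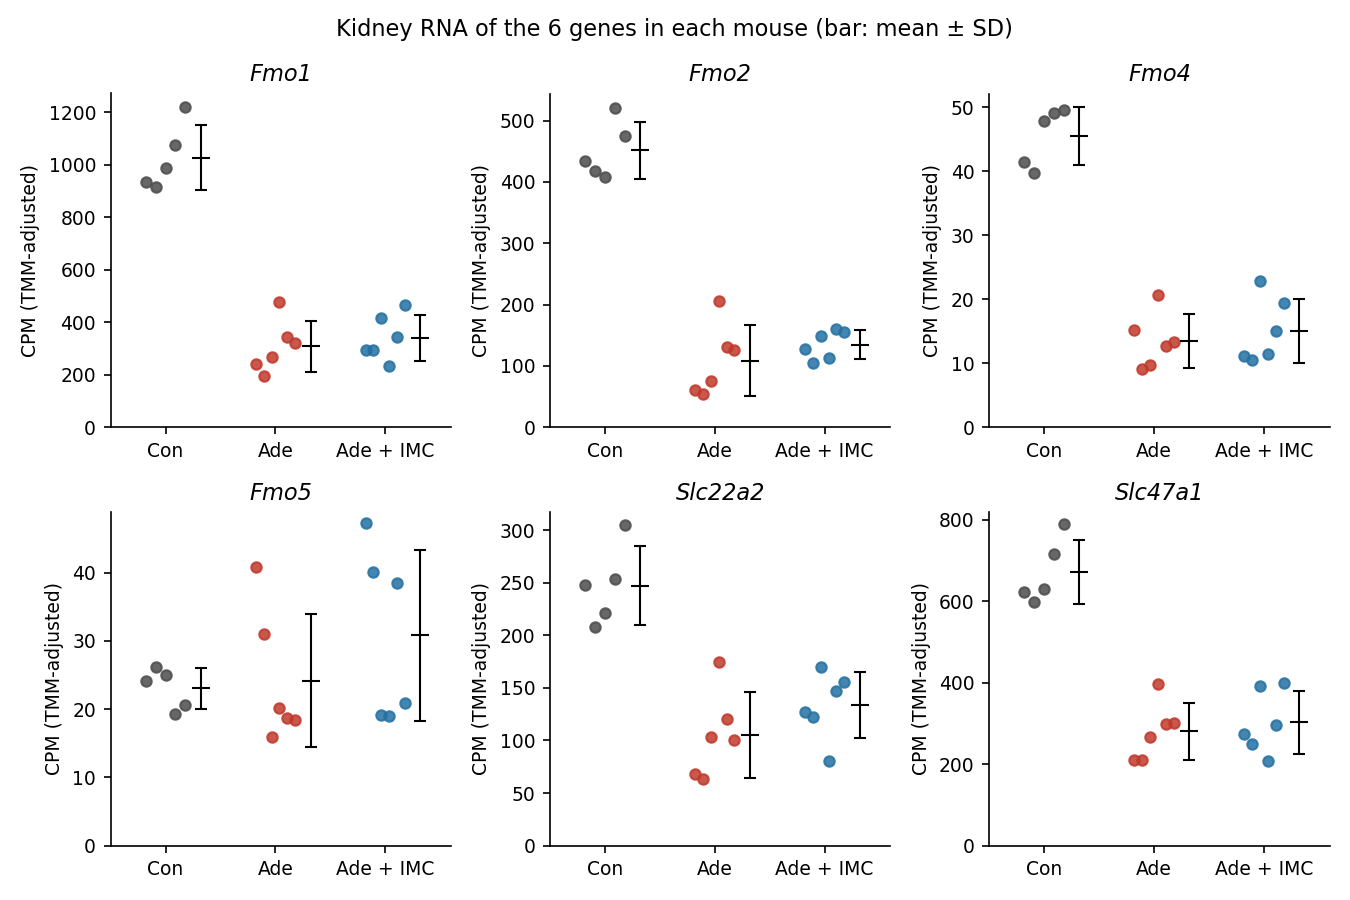
CPM of each gene (y axis, from 0) in each mouse of the Con (grey), Ade (red) and Ade + IMC (blue) groups, with 1 point per mouse and a bar for the mean ± SD. For the 5 genes other than Fmo5 all adenine-fed mice lie below the lowest Con mouse, whereas 5 of the 12 adenine-fed mice exceed the highest Con mouse for Fmo5.

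Fmo1 encodes the FMO of highest level in these kidneys. The 5 Con mice had 917, 934, 989, 1077 and 1220 CPM. In the Ade group the lowest mouse had 197, the median was 294 and the highest mouse had 478 CPM. The groups were far apart, and the mean of the Ade mice was 30.0% of the Con mean. The log2 fold change was -1.72 (SE 0.19, adjusted p = 5.80e-06, edgeR), larger than the spread between mice, and only 1.64% of the genes tested had a lower value.

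Fmo2 encodes an FMO known mainly from lung. Its Con values were 408, 418, 435, 474 and 521 CPM. The Ade mice ranged from 54.0 through a median of 100.5 to 206 CPM, the widest relative spread of the 6 genes in this group (coefficient of variation 53.0%). Mice 207 and 208, both of first digit 2, were lowest, and mouse 407 was highest. The log2 fold change of -2.03 (SE 0.29, adjusted p = 4.68e-05, edgeR) was the lowest of the 6.

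Fmo4, a gene of lower level, had 39.7, 41.5, 47.8, 49.1 and 49.5 CPM in the Con mice. The Ade values ran from 9.09 through a median of 13.0 to 20.7 CPM, and no Ade mouse came near the lowest Con mouse. The log2 fold change was -1.74 (SE 0.17, adjusted p = 1.80e-06, edgeR). Per length, the log2 ratio of Fmo1 to Fmo4 was 3.75 ± 0.29 in the Ade mice and 3.73 ± 0.09 in the Con mice (exact two-sided permutation p = 0.909), so no difference between the falls of these neighbours was detected.

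Slc22a2, the basolateral carrier, had 208, 221, 248, 254 and 305 CPM in the Con mice. The lowest, median and highest Ade values were 63.0, 102 and 175 CPM. The highest Ade mouse came closer, as a share of the lowest Con mouse, than for Fmo1, Fmo2 or Fmo4, but no mouse crossed. The log2 fold change was -1.21 (SE 0.22, adjusted p = 0.000326, edgeR).

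Slc47a1, the apical exporter, had 599, 624, 630, 716 and 790 CPM in the Con mice and from 209 through 282 to 398 CPM in the Ade mice. The log2 fold change was -1.24 (SE 0.16, adjusted p = 1.95e-05, edgeR). Between the carriers for entry and exit no difference in the fall was detected: the log2 ratio of Slc22a2 to Slc47a1 differed by -0.02 between the groups (exact two-sided permutation p = 0.846), with an SD of 0.21 over the Ade mice and 0.09 over the Con mice. Such a p does not show that they fell equally. In mouse 407, the Ade mouse with the highest value of each of the 5 genes, the levels were 478 (Fmo1), 206 (Fmo2), 20.7 (Fmo4), 175 (Slc22a2) and 398 CPM (Slc47a1).

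Whether the genes fell by different amounts was tested on the 15 log2 ratios between pairs of the 6, which do not depend on the scaling of a library. The exact two-sided permutation test has 462 splits of 5 and 6 mice and can give no p below 0.0021645, and 11 of the 15 ratios differed at a p adjusted over the 15 below 0.05. The 15 ratios share genes and are not independent. Ratios among other genes were not tested, so this count has no background share beside it. Fmo2 fell further than both transporters, by a log2 difference of -0.90 against Slc22a2 and -0.92 against Slc47a1 (adjusted p = 0.00812 for both, exact permutation), and all 6 Ade mice lay below every Con mouse in both ratios. Fmo1 also fell further than both, by -0.48 and -0.50 (adjusted p = 0.00812 for both, exact permutation). For Fmo4 the differences were -0.50 against Slc22a2 (adjusted p = 0.0595, exact permutation) and -0.52 against Slc47a1 (adjusted p = 0.0292, exact permutation). The first passed without mouse 207 (-0.66, adjusted p = 0.0119) and without mice 207 and 208 (-0.73, adjusted p = 0.0132). The second of these lost the call when any 1 of 10 of the 11 mice was left out, mouse 207 being the exception (adjusted p = 0.0541 to 0.0635 for the 10). Between FMOs, the log2 ratio of Fmo1 to Fmo2 rose by 0.42 (adjusted p = 0.0443, exact permutation), a call that was lost when any 1 of 9 of the mice was left out (adjusted p = 0.0541 to 0.0844), and without mice 207 and 208 together (0.26, adjusted p = 0.0794).

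Fmo5 stood apart from the other members. It encodes an FMO that is a poor oxidase of classical amine substrates and acts as a Baeyer-Villiger monooxygenase. The Con mice had 19.2, 20.6, 24.1, 25.1 and 26.1 CPM, and the Ade mice 15.9, 18.5, 18.7, 20.2, 31.0 and 40.8 CPM. The 6 Ade values fall on both sides of the Con range, 3 below the lowest Con mouse and 2 above the highest. The log2 fold change was 0.10 (95% interval -0.37 to 0.57, SE 0.22, adjusted p = 0.715, edgeR). The fall seen in each of the other 5 genes lies outside this interval.

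Against each of the 5 other members the ratio with Fmo5 differed between the groups. The log2 differences were -1.78 for Fmo1 to Fmo5, -2.21 for Fmo2 to Fmo5, -1.80 for Fmo4 to Fmo5 and 1.28 for Fmo5 to Slc47a1 (adjusted p = 0.00812 for each, exact permutation), with no overlap of the groups in any of these. For Fmo5 to Slc22a2 the difference was 1.30 (adjusted p = 0.0180, exact permutation), with 5 of the 6 Ade mice above every Con mouse. That call was lost without any 1 of 4 Con mice (adjusted p up to 0.0714).

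The 2 high Ade mice were 207 (40.8 CPM) and 208 (31.0 CPM), and in the Ade + IMC group mice 211 (47.2), 212 (40.1) and 410 (38.5 CPM) were high. In the same 5 mice, and in no other of the 12 adenine-fed mice, the summed level of adipocyte markers exceeded that of every Con mouse. This sum was taken over the 4 of 5 listed markers measured in all groups (Adipoq, Plin1, Cidec and Retn), none of which was at 0 throughout a group. Con mice ranged from 0.404 to 6.93 CPM, Ade mice from 0.250 to 61.9 CPM and Ade + IMC mice from 0.138 to 281 CPM. In the 5 mice it was 61.9 (207), 10.6 (208), 70.6 (211), 281 (212) and 37.8 CPM (410).

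Without mice 207 and 208, Fmo5 was lower in the remaining 4 Ade mice by a log2 fold change of -0.30 (adjusted p = 0.0475, edgeR), and the other 5 genes remained lower (-0.96 to -1.72). This choice of mice was made after the data were seen, and it takes away exactly the mice with high Fmo5. The 5 ratios with Fmo5 kept their direction and passed the test there too, from 0.68 for Fmo5 to Slc22a2 (adjusted p = 0.0433) to -1.51 for Fmo2 to Fmo5 (adjusted p = 0.0132, exact permutation). The part of adipocyte RNA in the level of Fmo5 was not tested.

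**Figure D2:**
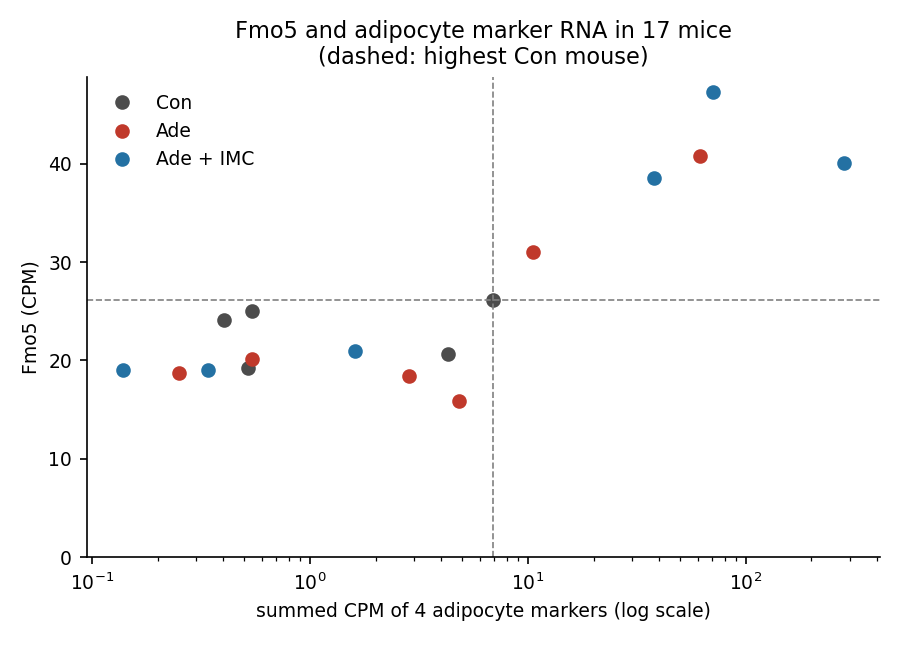
Fmo5 level in CPM (y axis, from 0) against the summed CPM of 4 adipocyte markers (x axis, log scale) in the 17 mice, coloured by group. Dashed lines mark the highest Con mouse on each axis, and the 5 mice above the one are the 5 mice beyond the other.

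The mice also carry a first digit of 2, 3 or 4 in their number, with a meaning that is not stated. Within each digit the Ade mean was below the Con mean for all 5 genes other than Fmo5, with log2 CPM differences of -1.19 to -2.89. For Fmo5 the differences were 0.50 within digit 2, -0.46 within digit 3 and -0.11 within digit 4, so its direction differed between digits. The 2 Ade mice of digit 2 were mice 207 and 208, those of high Fmo5, and digit 3 held 1 Ade mouse. The groups hold 1 to 3 mice per digit, so no test was made within a digit, and a fit with the digit as a block changed no call of the 6 genes.

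The sum of the FMO family makes the shift visible. Summed per length over Fmo1, Fmo2, Fmo4 and Fmo5, FMO transcripts stood at 259.7 ± 26.4 CPM per kb in the Con mice (SD, n = 5), 76.1 ± 25.9 in the Ade mice (n = 6) and 87.6 ± 17.8 in the Ade + IMC mice (n = 6). Fmo1 made up 62.7% ± 1.90 of this sum in Con, 64.5% ± 2.45 in Ade and 61.3% ± 3.92 in Ade + IMC mice. Fmo2 held 31.0% ± 1.88, 24.2% ± 5.02 and 27.7% ± 2.88, and Fmo4 4.73% ± 0.28, 4.87% ± 0.97 and 4.57% ± 0.86. Fmo5 went from a share of 1.59% ± 0.35 to 6.43% ± 4.01 in the Ade mice and 6.48% in the Ade + IMC mice (3.29 to 10.3%), and its lowest share in any adenine-fed mouse, 2.92%, was above its highest in a Con mouse, 1.96%. These are shares of RNA in a falling sum, and no test was made on them.

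**Figure D3:**
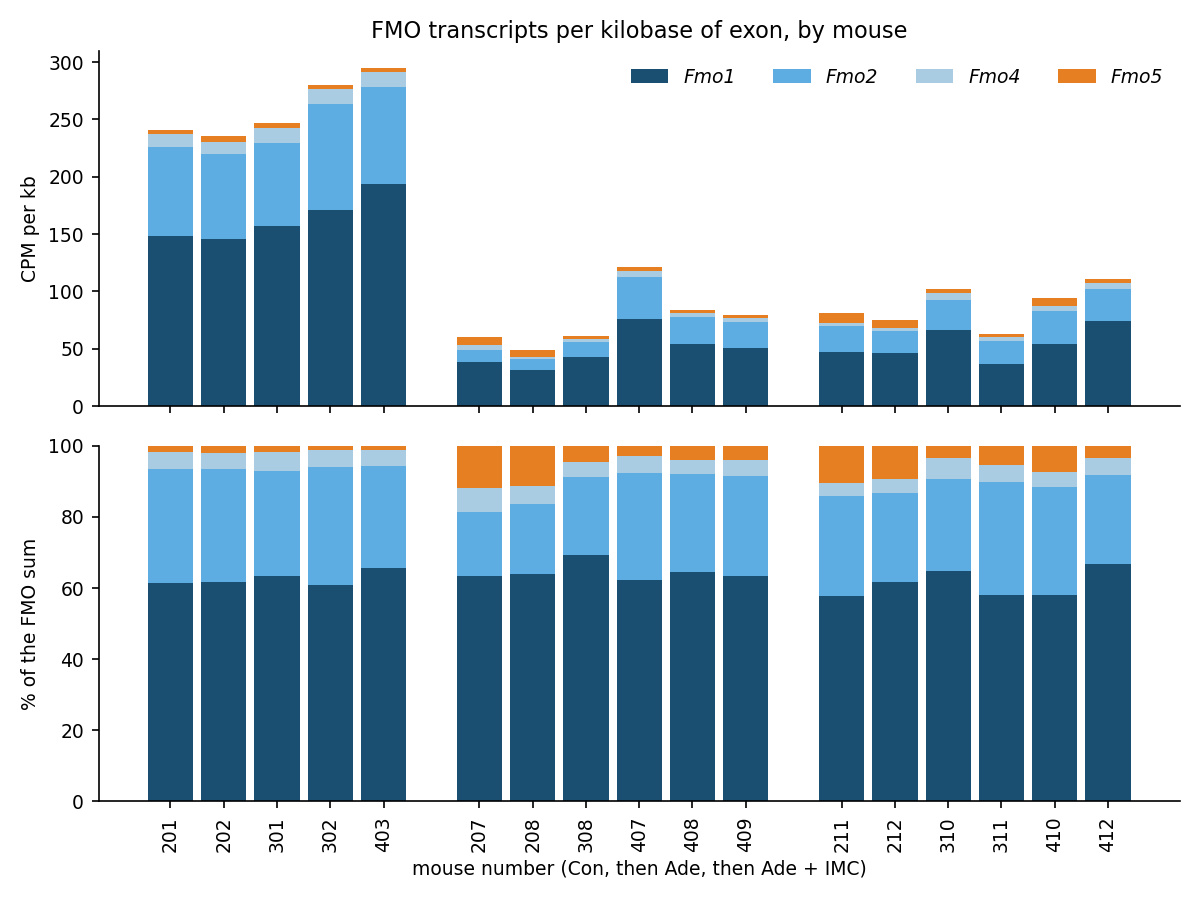
CPM per kilobase of exon (upper panel) and percent of the FMO sum (lower panel) of Fmo1, Fmo2, Fmo4 and Fmo5 in each mouse, as stacked bars from 0, ordered as Con, Ade and Ade + IMC. The bars fall from 235 to 295 CPM per kb in Con mice to 48.7 to 122 in adenine-fed mice, and the Fmo5 segment widens to 2.92 to 11.9% of the sum.

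Among relatives of the transporters, Slc22a3, which encodes OCT3, had 6 to 15 counts in the Con and Ade mice, with a log2 fold change of 0.36 (95% interval -0.30 to 1.01, adjusted p = 0.327, edgeR), and Slc47a2, which encodes MATE2, had at most 10 counts in any mouse.

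IMC was compared on top of adenine to ask whether blocking bacterial TMA formation moves these genes back. None of the 6 genes changed by the test between the Ade + IMC and Ade groups. On the log2(normalized count + 1) scale, limma with a trend gave 0.16 for Fmo1 (95% interval -0.29 to 0.60), 0.44 for Fmo2 (-0.15 to 1.04), 0.14 for Fmo4 (-0.35 to 0.63), 0.32 for Fmo5 (-0.30 to 0.93), 0.38 for Slc22a2 (-0.12 to 0.89) and 0.10 for Slc47a1 (-0.30 to 0.49). The adjusted p-values were 0.774 to 0.932. Across all genes limma called 0 of 14696 (0%), the smallest adjusted p being 0.601. The paper reports many genes, both lower and higher, in this comparison by DESeq2 at the same threshold. It also reports lower RNA of inflammatory and fibrosis genes by qPCR. The number called here depended on the fit, as given in the closing section. At an unadjusted p below 0.05 limma counted 988 genes (6.72%), with 0 of the 6 members among them, though 3 members pass in limma with a block on the first digit of the mouse number, where 13.7% of all genes do. All 6 estimates were above 0, as were 51.6% of those of all genes tested, and their median was 0.24 against 0.01.

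The levels in single mice show the overlap. Fmo2 had 105, 138 and 160.5 CPM as the lowest, median and highest value in the Ade + IMC group, inside the Ade range of 54.0 to 206. Slc22a2 had 80.0, 137 and 170.0 CPM, again inside the Ade range. For Fmo1 the 3 values were 232, 319 and 467 CPM, for Fmo4 10.5, 13.2 and 22.8, and for Slc47a1 208, 285 and 399.7 CPM. Outside the Ade range lay 1 Ade + IMC mouse for Fmo4 and 1 for Fmo5, both above it, and 2 for Slc47a1, 1 on either side. For Fmo5 the mice formed a low set (19.0, 19.1 and 21.0 CPM) and a high set (38.5, 40.1 and 47.2 CPM), the latter being the 3 mice whose adipocyte marker sum exceeded every Con mouse.

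Fmo2 differed most by mouse number. Its Ade + IMC mean exceeded the Ade mean by 1.01 on the log2 CPM scale within digit 2, by 0.77 within digit 3 and by 0.08 within digit 4. With the digit as a block its limma estimate was 0.55 (unadjusted p = 0.00856, adjusted p = 0.189). Those of Fmo5 and Slc22a2 were 0.38 (unadjusted p = 0.0179, adjusted p = 0.246) and 0.45 (unadjusted p = 0.0417, adjusted p = 0.342) in the same limma fit. The same 3 genes had an unadjusted p below 0.05 in edgeR with this block, as did 13.3% of the genes tested there, but none of the 6 was called, although the block called 133 genes in all by limma. For Fmo2 and Slc22a2 other settings gave smaller values: edgeR without the block estimated 0.29 for Fmo2 and 0.33 for Slc22a2, and without the 5 mice of high adipocyte markers limma gave 0.11 for Fmo2 and 0.07 for Slc22a2. In that last setting the estimates of the 6 genes ran from 0.02 (Slc47a1) to 0.33 (Fmo4).

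**Figure D4:**
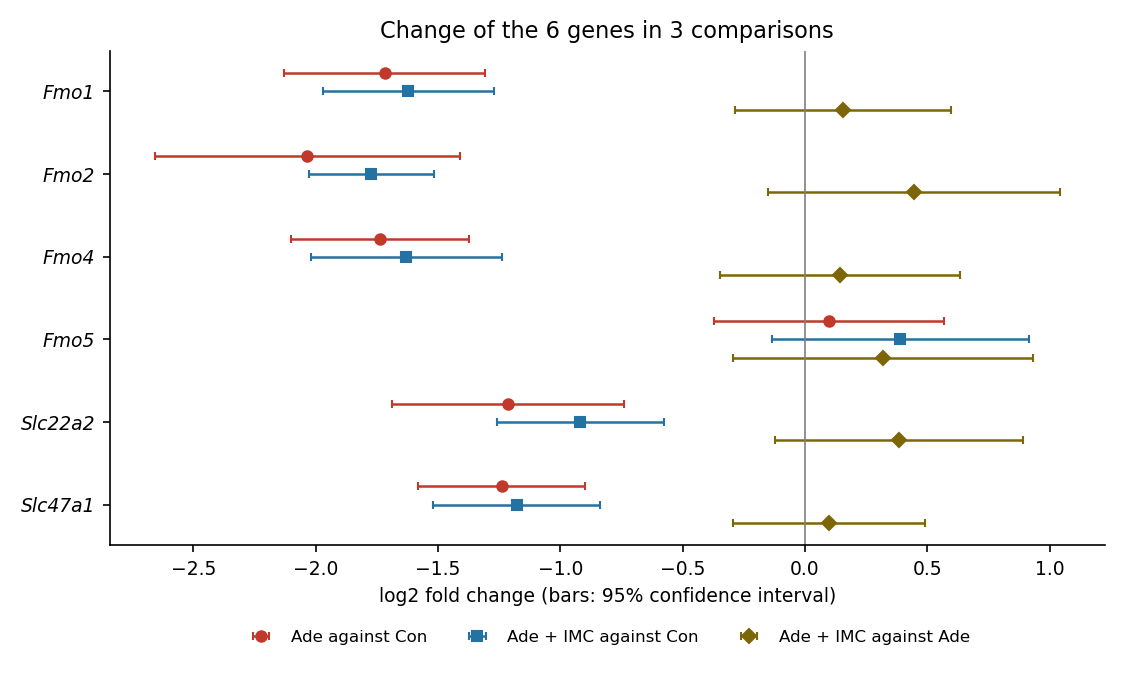
Log2 fold change (x axis) of each gene in the Ade against Con (circles), Ade + IMC against Con (squares) and Ade + IMC against Ade (diamonds) comparisons, with 95% confidence intervals. For 5 genes the first 2 intervals lie below 0 and the third spans 0, and for Fmo5 all 3 span 0.

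Kidneys of the Ade + IMC group were also set against the Con group, which shares no mouse with them, and the Con mice are the same as in the first comparison. The same 5 genes were lower and 0 higher in edgeR's test, where 63.2% of 14578 genes were called, 32.3% lower and 30.9% higher, and every Ade + IMC mouse was below every Con mouse for these 5, as for 16.4% of the genes. Fmo1 had a log2 fold change of -1.62 (SE 0.16), Fmo2 -1.77 (SE 0.12) and Fmo4 -1.63 (SE 0.18), with adjusted p-values of 4.37e-06, 1.95e-07 and 1.03e-05. Slc22a2 was 1.89-fold lower (log2 -0.92, SE 0.16, adjusted p = 0.000305, edgeR) and Slc47a1 2.26-fold lower (log2 -1.18, SE 0.16, adjusted p = 4.25e-05, edgeR). The Ade + IMC means were 33.2% (Fmo1), 29.9% (Fmo2), 33.1% (Fmo4), 54.1% (Slc22a2) and 45.1% (Slc47a1) of the Con means. Fmo5 gave 0.39 (95% interval -0.13 to 0.91, adjusted p = 0.189, edgeR), and -0.22 (adjusted p = 0.214) without mice 211, 212 and 410. Its 3 within-digit differences were 0.79, -0.20 and 0.46. Of the 95% intervals of the other 5 genes, the one nearest to 0 was that of Slc22a2 (-1.26 to -0.58).

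The genes around the 6 were described by lists, whose counts are read against the shares called over all genes given above. In the list of organic cation, carnitine and zwitterion transporters, to which Slc22a2 and Slc47a1 belong, 7 of 10 were tested and 5 were lower in the Ade group, with a median log2 fold change of -1.21. Slc22a5, which encodes the carnitine transporter OCTN2, fell most (-1.48, from 256 ± 43.5 to 90.4 ± 37.6 CPM), then Slc22a4, which encodes OCTN1 (-1.27). The other 2 tested, Slc22a3 and Slc22a21, had values of 0.36 and 0.18.

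Organic anion transporters carry acidic solutes, uremic toxins among them, across membranes of the same cells. All 13 tested of 14 were lower in the Ade group, with a median log2 fold change of -2.48 and the lowest values in Slc22a29 (-3.48) and Slc22a27 (-3.39, 0 to 6 counts in the Ade mice). Several of these lie in a cluster of close copies, and how reads shared among them were counted is not stated. In the Ade + IMC group the 12 that were tested against Ade had estimates above 0, with a median of 1.07, 5 of them at an unadjusted p below 0.05 in limma and 0 called.

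The 5 apical ABC pumps, which export drugs and conjugates into the tubular fluid, were all lower in the Ade group (median -1.22), led by Abcg2 (-1.33) and Abcc2 (-1.32). Against Ade their median in the Ade + IMC group was -0.07, with 0 called. Among choline and betaine handling genes, 9 of 16 tested were lower and 3 higher. The largest falls were those of Bhmt, the betaine-homocysteine methyltransferase (-4.39, from 88 to 189 counts in Con to 0 to 12 in Ade mice), and Dmgdh, the dimethylglycine dehydrogenase (-2.10). The rises were in Pemt (0.82, at 5 to 18 counts in the Con and Ade mice), the choline transporter-like gene Slc44a2 (0.77) and the choline kinase Chkb (0.34).

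In the Ade + IMC against Con comparison the calls of these lists were 5 lower of 7 cation, 13 of 13 anion and 5 of 5 ABC genes, and 9 lower and 3 higher of 16 choline and betaine genes. The lowest values were those of Slc22a5 (-1.26) and Slc22a4 (-1.21), Slc22a29 (-2.76) and Slc22a27 (-2.53), Abcc2 (-1.61) and Abcb1b (-1.32), and Bhmt (-3.66) and Slc6a20b (-1.65). Slc44a2 (0.77) and Pemt (0.66) had the largest rises.

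**Figure D5:**
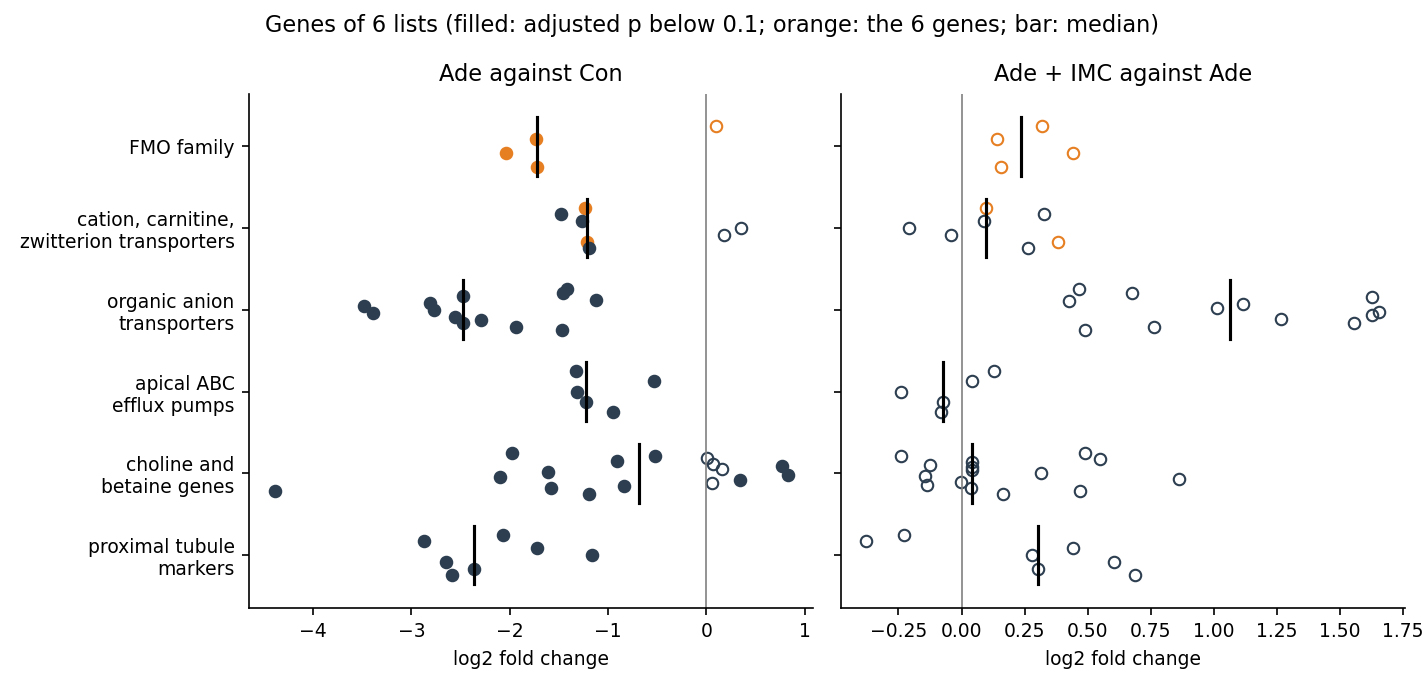
Log2 fold change (x axis) of each tested gene in 6 lists (rows) for Ade against Con (left) and Ade + IMC against Ade (right, on its own scale). Filled points are called at an adjusted p below 0.1, orange points are the 6 genes and bars are list medians, which on the left run from -2.48 (anion transporters) to -0.68 (choline and betaine genes).

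Proximal tubule RNA moved with the 5 genes. Of 8 markers of this cell type, which holds OCT2 and MATE1, 7 were tested and all 7 were lower in the Ade group, with a median log2 fold change of -2.37 and the lowest values in Slc5a12 (-2.87) and Lrp2 (-2.65). Their summed level ran from 11611.5 to 17557.5 CPM with the control diet, from 1692 to 6729.9 CPM with adenine and from 2747 to 5535 CPM with adenine and IMC. Mouse 407, with the highest values of the 5 genes, also had the highest sum of the Ade group, and mice 207 and 208, the lowest for Fmo1, Fmo2, Slc22a2 and Slc47a1, had the lowest sums (1692 and 1720 CPM). The log2 fold changes of Fmo1, Fmo2, Fmo4, Slc22a2 and Slc47a1 (-1.21 to -2.03) lay within the range of the markers (-1.16 to -2.87). In whole kidney, fewer proximal tubule cells and less RNA of a gene per cell cannot be told apart, for these genes or for the lists above.

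Markers of other cells moved too, and their part in the values of the 6 genes was not tested. In the Ade group 6 of 6 leukocyte markers were higher, led by Cd79a (log2 fold change 4.11, at only 0 to 6 counts in the Con mice) and C1qa (3.51), with sums of 422 to 741 CPM against 58.6 to 70.7 in Con mice. All 4 fibroblast markers were higher, led by Col1a1 (4.20) and Col3a1 (4.13), and all 4 injured tubule markers. Of these, Havcr1 had 1 to 7 counts in the Con mice and 549 to 2104 in the Ade mice, and Krt20 0 to 2 and 23 to 466 counts, so that no fold is given. Of thick ascending limb, distal tubule and collecting duct markers 4 of 5 were lower (lowest Aqp2, -1.28, and Slc12a1, -1.06), of endothelial markers 2 of 5 (Kdr, -0.99, and Emcn, -0.39) and of podocyte markers 0 of 2. The 4 hepatocyte markers summed to 62.7 to 85.1 CPM in Con, 126 to 297 in Ade and 123 to 315 in Ade + IMC mice, with Serpina1a (2.24) and Ttr (1.97) higher and Alb lower (-1.39) in the Ade group. Against Con, the Ade + IMC group had 7 of 7 proximal tubule markers lower (median -2.24) and 6 of 6 leukocyte, 4 of 4 fibroblast and 4 of 4 injured tubule markers higher. In this group 4 of 5 thick ascending limb, distal tubule and collecting duct markers were also lower than in Con (median -0.58). Its endothelial markers were 1 lower (Kdr, -0.58) and 2 higher (Egfl7, 0.43, and Cdh5, 0.40) of 5, and against Ade 0 markers of these lists were called.

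The genes whose pattern was most like that of each member were read over the 17 mice from log2 CPM minus the Con mean, by the smallest root mean square difference among 10791 genes with a mean of at least 10 CPM. These are descriptions over libraries that share the same groups. Nearest to Fmo1 were Hnf4a (0.13), Slc23a1 (0.14) and Slc7a9 (0.14), and nearest to Fmo2 were Abat (0.17), Galnt11 (0.17) and Ass1 (0.18). For Fmo4 they were Acot12 (0.19), Fmo1 (0.20) and Hnf4a (0.20). For Slc22a2, Slc13a3 (0.11) and Haao (0.12) were among the 3 nearest, and Slc47a1 was nearest to Pdzd3 (0.09), Tmem174 (0.10) and Cat (0.11). Fmo5 had no close neighbour of this kind, its nearest genes being Ociad2 (0.30), Fam189a2 (0.32) and Tbc1d2 (0.32), all log2 CPM differences.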

How the data were processed

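RNA of flash-frozen kidneys was made into Illumina TruSeq libraries and sequenced as 50-base single-end reads. The paper's methods name STAR and mm10, whereas the submitters' processing notes name Trimmomatic 0.39, FastQC 0.11.8, Bowtie2 2.2.5, HTSeq 0.9.1 and DESeq2, and which aligner made the deposited tables is not settled here. The use of strand and the annotation release are not given in the sources used here. The authors deposited 1 table of raw counts per gene (Con and Ade) and 1 of normalized counts (Ade and Ade + IMC), a signal made by dividing each count by the size factor of DESeq2. Another deposited table holds fold changes, p-values and adjusted p-values of the authors' own comparison of Ade + IMC with Ade, of which only the gene names were used.

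All normalized values above 0 were whole multiples of 1 read (100%, tolerance 0.001 reads), and in the Ade mice 0 of these reads disagreed with the raw table. The 20634 genes in both tables were joined. Gene names came from the deposited table for 20981 of 21657 identifiers and from a reference table for 373 more, and 303 had none. Ade and Con, and Ade + IMC (recovered reads) and Con, were compared by edgeR 4.0.16 (quasi-likelihood test, TMM, filterByExpr). For Ade + IMC against Ade, log2(normalized count + 1) of genes with a mean of at least 10 entered a limma 3.58.1 fit with an intensity trend, a scale that makes changes of low genes look smaller. Calls are at a Benjamini-Hochberg adjusted p below 0.1 over all genes tested, the threshold of the study's methods. An SE of an edgeR fold change is the fold change divided by the square root of F. CPM per mouse use TMM over 17 mice, and log2 CPM a prior count of 2. Ratios between members were compared by exact two-sided permutation over mice. Lengths are exonic bases of GENCODE vM21 (GRCm38), and promoter sequences are from RefSeq (GRCm38.p6).

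The members, lists and tests were chosen with earlier results of these data known. Named were the 6 members in each comparison, their nearest relatives, up to 2 called genes with the largest rise and fall per list, and the 3 genes most like each member. Chkb and the mice left out for their adipocyte markers were chosen after their values were seen. Some genes that these rules name are not reported here.

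On simulated data with 200 genes changed 2-fold (log2 1), edgeR recovered 91.5% for Ade against Con (14671 genes, 12.9% of calls false) and 93.5% for Ade + IMC against Con (14729 genes, 7.43% false), and limma 93.5% for Ade + IMC against Ade (14707 genes, 7.88% false). Every simulated gene had the same spread between mice, and only well-counted genes were changed. The shares therefore do not hold for genes that vary more, such as Fmo2 in the Ade mice (coefficient of variation 53.0%). Library totals of 5444833 to 11680809 reads set the counting precision, and the floor of 3 counts covers counting error only. Alternatives changed the tool (DESeq2 1.42.0), scaling, filter, pseudocount, threshold, mice included and a block on the first digit of the mouse number. R 4.3.3 was used.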

Additional observations from a re-analysis of the deposited data

How the results depend on the processing

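Every call of Fmo1, Fmo2, Fmo4, Slc22a2 and Slc47a1 against Con kept its direction and its side of the threshold under all alternatives run, for the Ade and for the Ade + IMC group: DESeq2, RLE and upper-quartile scaling, no filter on low counts, an adjusted p below 0.05, a block on the first digit, leaving out each mouse, leaving out the mice with high adipocyte markers and, for Ade, 1 fit of all 17 mice. Leaving out 1 mouse gave log2 fold changes against Con in the Ade group of -1.90 to -1.61 (Fmo1), -2.33 to -1.89 (Fmo2), -1.91 to -1.64 (Fmo4), -1.43 to -1.10 (Slc22a2) and -1.38 to -1.16 (Slc47a1).

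Fmo5 turned with the mice included. In Ade against Con, leaving out 1 mouse gave -0.11 to 0.19, below 0 without mouse 207 and above 0 without any other, and without mice 207 and 208 it was -0.30 (adjusted p = 0.0475). In Ade + IMC against Con the range was 0.23 to 0.52 and Fmo5 passed the threshold without mouse 310 (0.50, adjusted p = 0.0807), 311 (0.50, adjusted p = 0.0759) or 412 (0.52, adjusted p = 0.0855), the 3 mice of that group with low Fmo5, whereas without mice 211, 212 and 410 it was -0.22.

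For Ade + IMC against Ade, 0 genes were called by limma, by edgeR on the recovered reads, under both other pseudocounts, without the filter, with TMM scaling and without any 1 mouse, 37 by DESeq2, 133 by limma with the first digit as a block and 104 by edgeR with that block, which was added after the data were seen. The adjusted p of the 6 members was 0.189 to 1 over all alternatives. Of the ratios between members, those near 0 changed sign: Fmo1 to Fmo4 ran from -0.0338 to 0.124 and Slc22a2 to Slc47a1 from -0.0755 to 0.0345 when 1 mouse was left out, the latter being 0.0885 without mice 207 and 208. No paired analysis was possible because the replicate numbers follow accession order and pair no mice across groups. The cause was not tested. Fmo4 to Slc22a2 passed without mouse 207 and without mice 207 and 208.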
